A study of Homo sapiens with 20 samples.

Results

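The sterol and fatty acid synthesis genes described here are 8 of the 20007 protein-coding genes of the GENCODE release 44 annotation: INSIG1, HMGCS1, SQLE, IDI1, FDFT1, SREBF1, SREBF2 and SCD. They were chosen by name, with measured values of these same lists in view, and the rule uses the position, rank and genotype of each peak summit. The values at these genes are therefore given as a description, with no test. The study profiled the transcription factor MYC and RNA polymerase II (POL2) by chromatin immunoprecipitation and sequencing in PC-3, an established prostate cancer cell line. Wild-type (WT) cells were set beside PSD10 cells, in which the kinase gene SLK was knocked out (SLK-KO). The growth protocol describes no further treatment, and whether PSD10 is a clone is not given in the sources used here. Each antibody had 3 WT and 3 SLK-KO libraries, described as biological replicates, and the 8 IgG and Input libraries of the 20 samples were not used here.

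Cells make cholesterol from acetyl-CoA through mevalonate, isoprenoid units and squalene, and they make and desaturate fatty acids from the same precursor. The SREBP transcription factors, encoded by SREBF1 and SREBF2, switch on both pathways. When sterols are plentiful, INSIG1 holds the SREBPs and their escort protein SCAP in the endoplasmic reticulum, and when sterols are scarce the SREBPs are cleaved and move to the nucleus. INSIG1 is itself an SREBP target, and prostate cancer cells are known for active lipid synthesis.

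The sequences that the results turn on are shown first, 5′ to 3′ on the strand named, in GRCh38 coordinates. The promoters are from RefSeq (GRCh38.p14) and are shown for the genes whose POL2 summits are described in most detail. They cover the bases before the gene's start that lie outside annotated exons. The 3 windows of 201 bases are from the GRCh38 reference and are centred on a POL2 site upstream of INSIG1 found in WT lists, on a second site found in both genotypes, and on the MYC summit found at these genes. Capitals mark matches to 6 motifs on either strand. The E-box that MYC binds was searched as CACGTG, and the core of the sterol regulatory element, which SREBPs bind, was searched as TCACNCCAC. The letters CCAAT gave the CCAAT box, and the letters GGGCGG gave the GC box. The TATA box was searched as TATAAA, while the AP-1 element was searched as TGANTCA. Neighbouring GC boxes can overlap.
INSIG1 promoter, chr7:155297628-155297775, plus strand: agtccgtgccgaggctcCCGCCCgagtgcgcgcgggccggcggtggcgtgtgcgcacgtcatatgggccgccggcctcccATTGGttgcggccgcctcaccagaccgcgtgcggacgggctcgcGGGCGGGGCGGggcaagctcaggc
HMGCS1 promoter, chr5:43313513-43313662, minus strand: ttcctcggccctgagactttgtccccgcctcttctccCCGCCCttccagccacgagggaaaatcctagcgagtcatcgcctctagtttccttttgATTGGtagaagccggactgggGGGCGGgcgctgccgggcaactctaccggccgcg
SREBF2 promoter, chr22:41832855-41833104, plus strand: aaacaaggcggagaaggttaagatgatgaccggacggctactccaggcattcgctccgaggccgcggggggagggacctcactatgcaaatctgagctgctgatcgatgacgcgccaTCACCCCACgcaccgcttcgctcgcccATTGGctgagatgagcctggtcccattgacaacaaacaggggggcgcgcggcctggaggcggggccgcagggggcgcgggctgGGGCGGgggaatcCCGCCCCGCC
SCD promoter, chr10:100346983-100347232, plus strand: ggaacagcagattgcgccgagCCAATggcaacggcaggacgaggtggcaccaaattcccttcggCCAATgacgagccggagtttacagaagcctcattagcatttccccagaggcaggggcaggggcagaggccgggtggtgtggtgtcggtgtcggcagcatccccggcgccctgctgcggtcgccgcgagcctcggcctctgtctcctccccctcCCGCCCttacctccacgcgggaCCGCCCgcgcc
INSIG1 site at -67.7 kb, chr7:155230097-155230297, plus strand: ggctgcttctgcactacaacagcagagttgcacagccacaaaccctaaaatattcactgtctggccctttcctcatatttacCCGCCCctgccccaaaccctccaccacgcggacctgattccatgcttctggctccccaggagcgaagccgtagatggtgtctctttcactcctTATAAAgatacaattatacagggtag
INSIG1 site at -92.1 kb, chr7:155205671-155205871, plus strand: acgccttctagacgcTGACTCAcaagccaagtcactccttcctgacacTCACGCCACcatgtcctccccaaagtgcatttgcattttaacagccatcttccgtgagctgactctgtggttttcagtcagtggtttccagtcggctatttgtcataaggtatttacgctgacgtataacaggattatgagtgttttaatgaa
SREBF1 window around its MYC summit, chr17:17836381-17836581, minus strand: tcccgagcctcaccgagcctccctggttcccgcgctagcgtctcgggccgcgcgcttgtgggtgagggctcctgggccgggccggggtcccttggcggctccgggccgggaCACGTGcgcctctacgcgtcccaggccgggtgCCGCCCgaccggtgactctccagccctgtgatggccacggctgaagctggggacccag

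Of the 35116 RefSeq promoter windows of 300 bases, 250 before to 50 after a start, the sterol element core was in 1.13%, the E-box in 7.26%, the CCAAT box in 34.6%, the GC box in 45.0%, the TATA box in 11.5% and the AP-1 element in 7.71%. The table held 6 of the 8 genes. Among these, the SREBF2 window held the sterol element core, with its first base at -133 from the start and a CCAAT box at -106 beside it. The INSIG1 window held an E-box at -55 and a TATA box at -27, both nearer the start than the stretch shown, and 6 GC boxes. HMGCS1 and SCD each held 2 CCAAT boxes, IDI1 held 3, and SREBF1 held 3 GC boxes and none of the other 5 motifs. All 6 windows had more CpG dinucleotides than the median promoter, which had 14, with 48 at INSIG1 as the most and 25 at SCD as the fewest. A match is a description of the letters and does not show a bound factor.

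The lists give the summit of every peak called in a single library, with no read counts or depth. The POL2 lists held 5047 to 17126 summits in WT and 15436 to 19017 in SLK-KO, and the MYC lists 201 to 365 and 988 to 1420. A rank within a list therefore shows no change between lists of different lengths, and missing from a short list is a weaker statement than missing from a long one. For this reason counts are also given with every POL2 list reduced to its 5047 best-scored summits, the length of the shortest, which is WT replicate 2. Of the epithelial markers, KRT8, KRT18 and KRT19 had a POL2 promoter summit in 6 of 6 libraries, EPCAM in 4 and CDH1 in 1. Of the markers of other cell types, PTPRC (leukocytes), CD3E (T cells) and ALB (hepatocytes) had none, PECAM1 (endothelium) had 1 in WT, and COL1A1 (fibroblasts) was in 2 libraries of each genotype. SLK itself had a POL2 promoter summit in 2 WT and 3 SLK-KO libraries, which does not show whether its product was lost.

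POL2 sat at the start of most of these genes in both genotypes. A promoter summit, meaning one within 1 kb of an annotated transcription start site, was found in all 6 POL2 lists for 4 of the 8 genes, HMGCS1, IDI1, SREBF1 and SREBF2, against 18.1% of all protein-coding genes. At least 1 list held 7 of the 8, against 53.8%. FDFT1 had none. No gene of the 8 was in all 3 SLK-KO and 0 WT lists, a pattern of 1.54% of genes, and none was in 3 WT and 0 SLK-KO lists, a pattern of 0.0100%. SCD was in more SLK-KO than WT lists, as were 30.6% of genes, and INSIG1 in more WT lists, as were 2.39%. INSIG1 was missing from SLK-KO replicate 2, SCD from WT replicate 2, and SQLE was in replicate 1 of each genotype.

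In lists of equal length more of these genes were found in WT than in SLK-KO. The 3 WT lists then held 6, 5 and 5 of the 8 genes and the 3 SLK-KO lists 3, 2 and 3. Over all protein-coding genes the same lists held 4947, 3821 and 4743 in WT and 4863, 4818 and 4884 in SLK-KO. INSIG1, IDI1, SREBF2 and SCD were in more WT than SLK-KO lists, against 7.45% of all genes, and none of the 8 was in more SLK-KO lists, against 10.7%. INSIG1 alone was in 3 WT and 0 SLK-KO lists, a pattern of 0.455% of genes, and none showed the reverse, a pattern of 1.00%. The INSIG1 summits of the WT lists did not all share a position. Those of replicates 2 and 3 lay nearer the start of the noncoding RNA gene INSIG1-DT. HMGCS1 and SREBF1 were in all 6, against 13.1%. The cut keeps the upper end of each longer list and leaves the list of WT replicate 2 whole. A gene missing here can still have a worse-ranked summit, as IDI1, SREBF2, SCD and INSIG1 each did in at least 1 SLK-KO library. Such a summit can score above one that counts. SREBF2 counted in WT replicate 2 with a score of 3.05, but not in SLK-KO with 5.90, 7.92 and 8.99. INSIG1 counted in WT replicate 2 with 3.61, but not in SLK-KO replicate 1 with 8.60. The part of the cut in the higher WT counts was not tested.

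**Figure D1:**
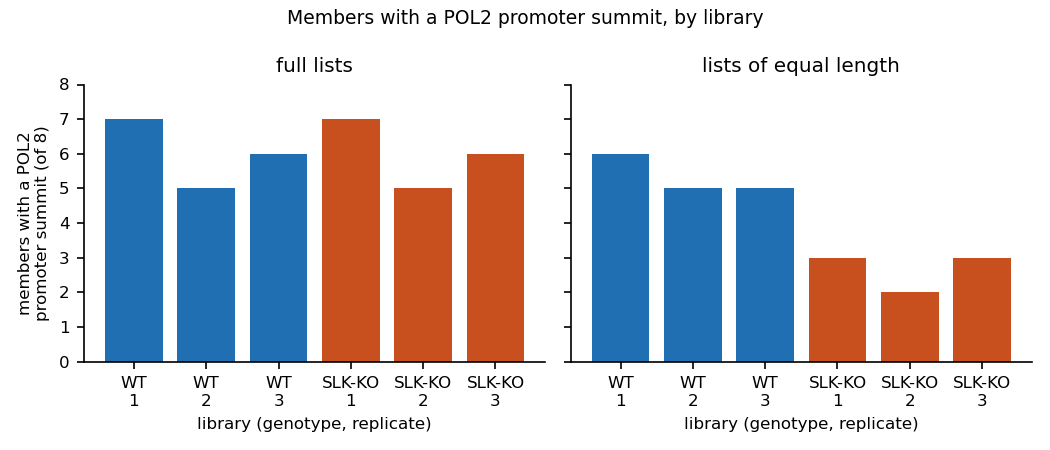
Number of the 8 genes with a POL2 promoter summit (vertical axis) in each of 3 WT (blue) and 3 SLK-KO (orange) libraries, in the full lists (left) and in lists cut to the length of the shortest (right). The full lists held 5 to 7 genes in both genotypes, and the lists of equal length 5 or 6 in WT and 2 or 3 in SLK-KO.

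By the median rank as a percent of the list's length, the order from best to worst was SREBF1 (5.12%), HMGCS1 (7.37%), IDI1 (27.0%), SCD (38.6%), INSIG1 (47.0%), SREBF2 (55.2%) and SQLE (62.9%). The ranges over libraries of every pair of neighbours in this order overlapped. SREBF1 ran from 2.20% to 6.99% and HMGCS1 from 2.90% to 18.4%, while SREBF2 ran from 26.8% to 92.8%. SREBF1 and HMGCS1 therefore stood within the best 18.4% of every list.

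**Figure D2:**
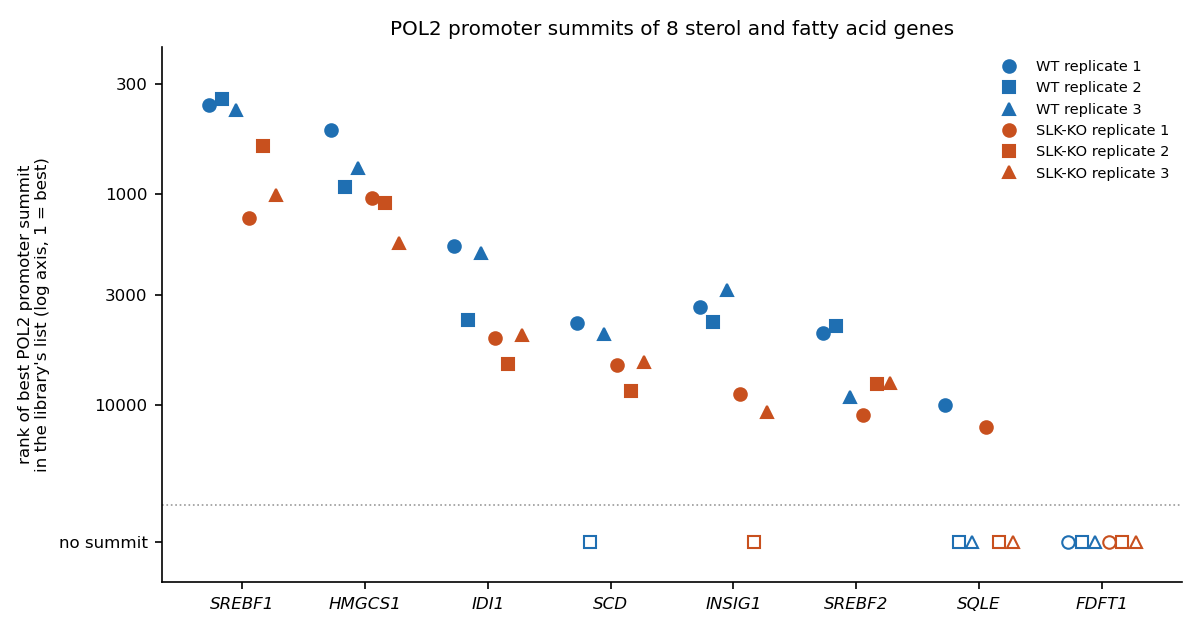
Rank of each gene's best POL2 promoter summit in its library's list (vertical log axis, best at the top) for 3 WT (blue) and 3 SLK-KO (orange) libraries, with replicates 1, 2 and 3 as circles, squares and triangles and open symbols for no summit. SREBF1 ranks lie between 353 and 1298 and SREBF2 ranks between 4249 and 11168; lists differ in length, so ranks are compared within a list.

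SREBF1 encodes the SREBP forms best known for fatty acid synthesis (ENSG00000072310.18, GRCh38 chromosome 17, 17810399 to 17837002, minus strand). Its best POL2 summit ranked 377, 353 and 400 in the WT lists and 1298, 588 and 1013 in the SLK-KO lists. All 6 summits lay inside intron 1, between 429 and 550 bp downstream of the canonical start, and not at the start itself. With a window of 250 bp in place of 1 kb, SREBF1 was therefore not among the genes found in all 6 lists. WT replicate 1 had a further summit 39 bp from an internal start site 18602 bp into the gene, at rank 16105, and SLK-KO replicate 2 had a further summit at -649 bp from the canonical start, at rank 12314.

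SREBF2 encodes the SREBP best known for sterol synthesis (ENSG00000198911.13, chromosome 22, 41833105 to 41907306, plus strand). Its POL2 summit ranked 4592, 4249 and 9214 in WT and 11168, 7968 and 7882 in SLK-KO. In 5 libraries the summit was in exon 1, in the untranslated region, 43 to 77 bp after the canonical start, and in WT replicate 2 it was upstream, at -384 bp. The scores, read as -log10 of the q-value, were 18.4, 3.05 and 2.60 in WT and 5.90, 7.92 and 8.99 in SLK-KO, so 5 of the 6 were below 10. The genes of the microRNAs miR-33a and miR-33b lie in introns of SREBF2 and SREBF1 and are known to act on cholesterol efflux. No POL2 summit lay within 1 kb of either, the nearest being 45755 bp from MIR33A and 3614 bp from MIR33B.

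HMGCS1 makes HMG-CoA, an early intermediate of sterol synthesis (ENSG00000112972.15, chromosome 5, 43287470 to 43313512, minus strand). Its POL2 summit ranked 496, 927 and 753 in WT and 1048, 1104 and 1711 in SLK-KO. The 6 summits fell between 22 and 74 bp after the canonical start, 5 of them in exon 1 and that of WT replicate 2 in intron 1. No list had a further summit at HMGCS1.

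IDI1 interconverts the isoprenoid units from which squalene is built (ENSG00000067064.13, chromosome 10, 1039152 to 1049119, minus strand). Its POL2 summit ranked 1755, 3969 and 1909 in WT and 4828, 6386 and 4674 in SLK-KO. It lay 243 to 332 bp after the canonical start but within 96 bp of another annotated start of IDI1. The start of WDR37, on the other strand, is 419 bp from a start of IDI1. The summits in this window therefore cannot be assigned to 1 of the 2 genes. WDR37 was also the gene whose rank percentiles were most like those of IDI1, as both genes count summits of the shared window.

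SCD introduces the double bond that makes oleic acid from stearic acid (ENSG00000099194.6, chromosome 10, 100347233 to 100364826, plus strand). Its POL2 summit ranked 4094 and 4625 in WT replicates 1 and 3, was missing from WT replicate 2, and ranked 6457, 8604 and 6291 in SLK-KO. All 5 summits lay upstream of its single annotated start, at -257 and -106 bp in WT and at -114, -130 and -132 bp in SLK-KO, so 4 of the 5 fell between -132 and -106 bp. The long noncoding RNA gene ENSG00000231188 has a start 843 bp from that of SCD. Which gene the summits in this window belong to was not tested. A further summit lay at -777 bp in WT replicate 3 and at -779 bp in SLK-KO replicate 1. These were the summits farthest from a start among those counted as promoter summits of the 8 genes. SCD also had a gene body summit, 15518 bp after its start.

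SQLE and FDFT1 carry squalene forward and make it, respectively, and both lie on chromosome 8. SQLE, the squalene epoxidase (ENSG00000104549.12, 124998497 to 125022283, plus strand), had a POL2 summit at rank 10018 of WT replicate 1 and at rank 12782 of SLK-KO replicate 1, 114 and 88 bp after its canonical start. Those are the longest lists of each genotype, and in lists of equal length SQLE was in none. The long noncoding RNA gene SQLE-DT has a start 299 bp from a start of SQLE. Which gene the summits in that window belong to was not tested. FDFT1, the squalene synthase (ENSG00000079459.14, 11795573 to 11839395, plus strand), had no summit of either antibody. The nearest POL2 summit in any list was 1523280 bp from its start sites, a distance reached by 1.12% of protein-coding genes.

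The gap between POL2 summits in which FDFT1 lies was 4967103 bp long and held 33 protein-coding genes and 0 MYC summits. ACACA, the acetyl-CoA carboxylase of fatty acid synthesis, lay in a like gap of 3256298 bp with 58 protein-coding genes, and NSDHL, a sterol demethylation enzyme, in one of 1936897 bp with 26. The fatty acid elongase gene ELOVL6 lay in a gap of 2329864 bp with 6 protein-coding genes and 2 MYC summits. These gaps were shared by all 6 POL2 lists, and their origin was not tested.

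**Figure D3:**
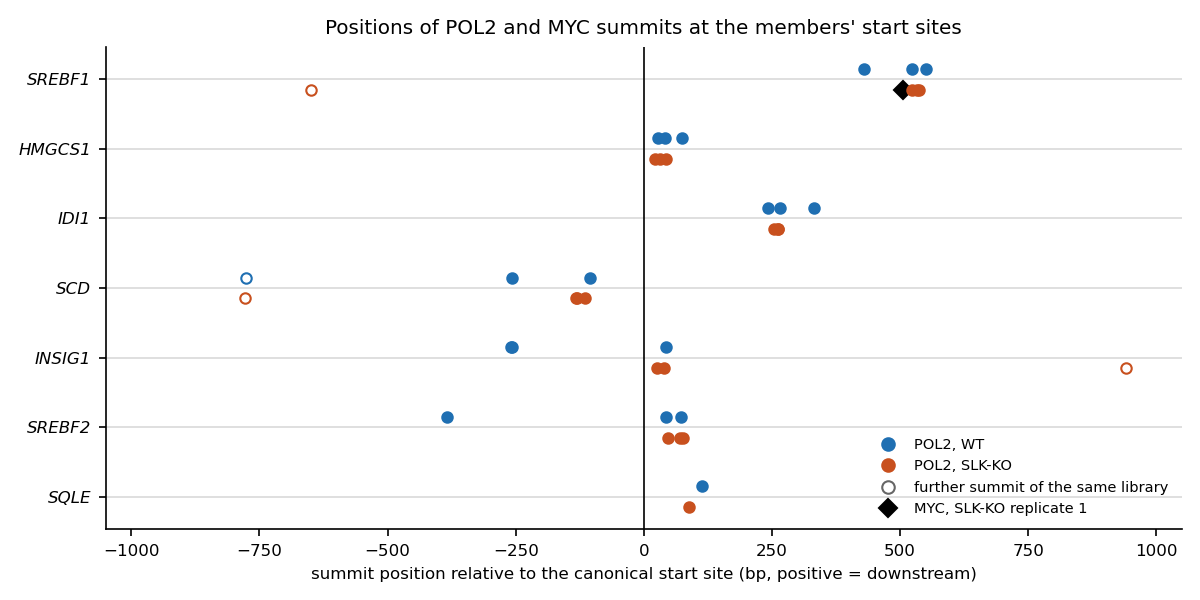
Position of every POL2 promoter summit relative to the canonical start (horizontal axis, bp, positive downstream) for the 7 genes with a summit, WT above and SLK-KO below each line, with open circles for further summits of a library and a black diamond for the MYC summit. SREBF1 summits cluster 429 to 550 bp downstream of the start, HMGCS1 summits at 22 to 74 bp, and the INSIG1 summits at -259 and -257 bp are both from WT; the summit of SREBF1 at an internal start lies outside the axis.

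INSIG1 retains the SREBPs in the endoplasmic reticulum (ENSG00000186480.13, chromosome 7, 155297776 to 155310235, plus strand). Its promoter summit ranked 3444, 4047 and 2860 in the WT lists and 8945 and 10907 in SLK-KO replicates 1 and 3, with none in SLK-KO replicate 2. Every WT rank was within the 5047 best summits, as any rank in WT replicate 2 is, and no SLK-KO rank was. As a percent of the list's length the ranks were 20.1%, 80.2% and 28.8% in WT and 47.0% and 66.9% in SLK-KO. The scores were 25.0, 3.61 and 13.8 in WT and 8.60 and 5.33 in SLK-KO. The genotypes overlapped in both measures, with WT replicate 2 the lowest of the WT libraries in each.

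The INSIG1 promoter had its summits at 2 places. In WT replicates 2 and 3 the summit lay at -259 and -257 bp from the canonical start, just before the promoter stretch shown above, and 79 bp from the start of the divergent long noncoding RNA gene INSIG1-DT. In WT replicate 1 and SLK-KO replicates 1 and 3 it lay 44, 39 and 26 bp after the start, in the untranslated part of exon 1. The upstream position was in 2 WT and 0 SLK-KO lists and the downstream one in 1 WT and 2 SLK-KO lists, so the split did not follow genotype in every library. SLK-KO replicate 3 had a further summit 941 bp after the start, in intron 2.

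Within 100 kb of the INSIG1 start the WT lists held 4, 2 and 3 POL2 summits and the SLK-KO lists 2, 1 and 2. The WT mean was 3.00 ± 1.00 and the SLK-KO mean 1.67 ± 0.577 (SD, n = 3 each), a difference of -1.33, and the ranges met at 2. More summits in WT than in SLK-KO were seen at 7.50% of the 15840 protein-coding genes with any summit within 100 kb. The WT counts were at or above those of 74.8%, 88.2% and 82.2% of protein-coding genes, and the SLK-KO counts at or above those of 54.2%, 44.9% and 58.5%. Within 50 kb the difference was 0. The sites at -67.7 kb and -83.4 kb, found in 3 and 1 WT lists and in no SLK-KO list, made up the difference.

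Chained when 250 bp or less apart, the summits of this locus formed 6 sites. The site at -67.7 kb was in 3 WT and 0 SLK-KO lists, a pattern shown by 37 of the 34536 POL2 sites of the study (0.107%), while 1029 sites (2.98%) were in 3 SLK-KO and 0 WT lists. Its summits ranked 3881, 2233 and 2448 in WT and fell within 26 bp (155230185 to 155230210). It lay in no annotated gene, 7294 bp from the nearest start, that of the unnamed gene ENSG00000278998, and the nearest SLK-KO summit was 24253 bp away. All 3 of its ranks were within the 5047 best summits, as any rank in WT replicate 2 is. Each SLK-KO list held more than 5047 summits. In lists of equal length, 103 of 9609 POL2 sites (1.07%) were in 3 WT and 0 SLK-KO lists and 242 (2.52%) in 3 SLK-KO and 0 WT lists. The window shown above holds a GC box and a TATA box, which 25.3% and 8.77% of all POL2 sites hold in windows of this length.

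The site at -92.1 kb was in WT replicates 1 and 3 and SLK-KO replicates 1 and 2. Its summits ranked 7408 and 8380 in WT and 9591 and 13390 in SLK-KO, and spread over 347 bp inside the long noncoding RNA gene ENSG00000287865. Its window holds the sterol element core and the AP-1 element, found at 1.17% and 7.51% of POL2 sites. The site at -83.4 kb was in WT replicate 1 only, at rank 15743, and held none of the 6 motifs. No MYC list had a summit within 100 kb of INSIG1, and no POL2 summit lay downstream of the gene within that distance.

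**Figure D4:**
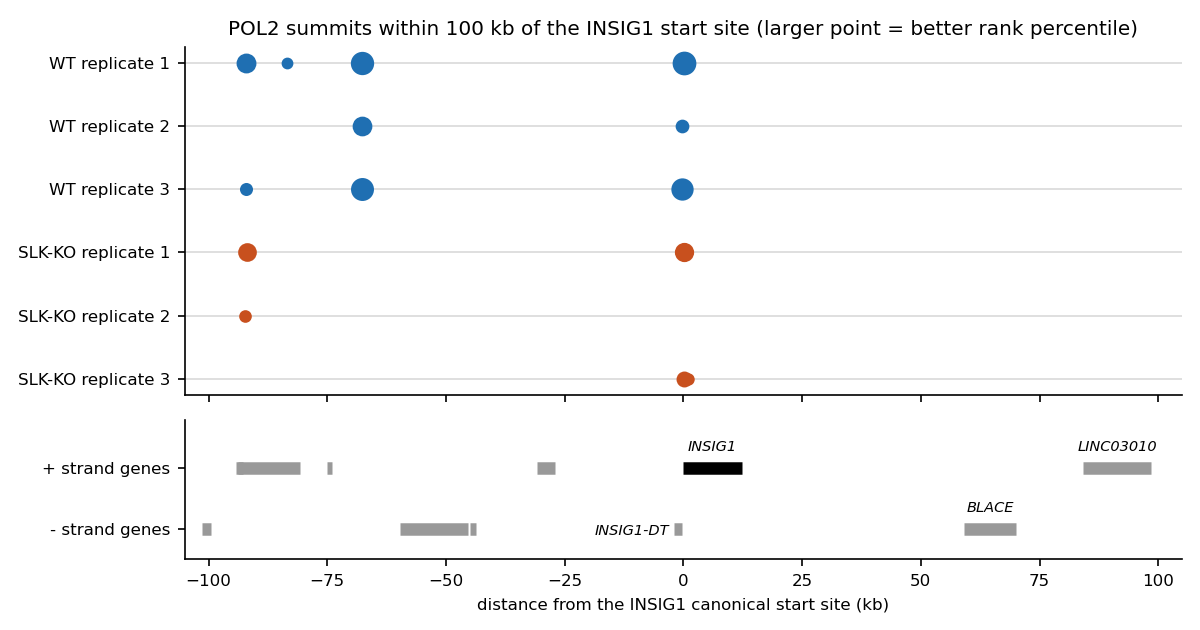
POL2 summits by distance from the INSIG1 start (horizontal axis, kb) in 3 WT (blue) and 3 SLK-KO (orange) libraries, larger points having a better rank percentile in their own list, above the annotated genes of each strand (INSIG1 in black, unlabelled bars unnamed genes). The column at -67.7 kb holds the 3 WT libraries and no SLK-KO library, and the column at -92.1 kb holds 2 of each.

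By the 6 counts within 100 kb, the genes most like INSIG1 were FCGR2C, FCGR3A and HSPA6, each differing by 1 summit in 1 library. They are neighbours that share the same summits. By rank percentile over the 6 libraries, IGF2BP2 was most like HMGCS1 (summed difference 6.47 percentage points), STK17B most like SREBF1 (5.62) and DDRGK1 most like SREBF2 (31.8).

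MYC was found at 1 of the 8 genes. SREBF1 had a MYC summit in SLK-KO replicate 1, at rank 1085 of 1218, and the other 7 genes had none in any list, against 9.67% of all protein-coding genes with a MYC promoter summit in at least 1 list. None of the 8 was in 3 SLK-KO and 0 WT MYC lists, a pattern of 0.875%. The summit had a score of 2.82, lay in intron 1 at 505 bp after the start and was 19 bp from a POL2 summit. Its rank was past the length of the longest WT list, 365, while its score was above the lowest score of every WT list, 1.39 to 1.43. Whether list length bears on its absence from WT was not tested. The window shown above holds an E-box, with its first base 11 bp from the summit, as do the windows of 30.9% of that library's MYC summits, and without that library no gene of the 8 had a MYC summit.

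POL2 within the gene bodies, over 1 kb from every start, was called once. SCD had a summit 15518 bp downstream of its start in WT replicate 1, in the untranslated part of exon 6, at rank 16105 of 17126. At least 1 gene body summit was found for 21.4% of protein-coding genes. Per library, the 8 genes together had 0.333 ± 0.577 gene body summits in WT (SD, n = 3) and 0 in each SLK-KO library, a difference of -0.333, and 0 MYC summits in either genotype. A summit list marks the highest point of a called peak, so polymerase spread evenly along a gene would leave little trace in it.

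To set ranks side by side on a scale of the same length, the 3614 genes with a POL2 promoter summit in all 6 lists were ranked among themselves. The order in each list was that of their best promoter score. Which genes enter still depends on the shortest list, that of WT replicate 2, where 3821 genes had a promoter summit. SREBF1 then ranked 363, 335 and 396 in WT and 1243, 587 and 989 in SLK-KO. HMGCS1 ranked 489, 902 and 749 in WT and 1013, 1052 and 1567 in SLK-KO. For both genes every WT library was better than every SLK-KO library, as for 15.0% of the 3614 genes, and no gene of the 8 showed the reverse, as for 14.8%.

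IDI1 ranked 1701, 3160 and 1772 in WT and 3079, 3344 and 3042 in SLK-KO, where WT replicate 2 lay among the SLK-KO libraries. SREBF2 ranked 3178, 3320 and 3599 in WT and 3596, 3496 and 3484 in SLK-KO, so its ranges overlapped. The median of the difference in mean rank, SLK-KO minus WT, was 536 over these 4 genes and 3.33 over all 3614. The 4 genes entered only because each had a summit in every list, and the other 4 members have no value of this kind. Without WT replicate 2, or without WT replicate 3, 3 of the 4 were better in every remaining WT library, and the share over all 3614 genes was then 21.5% or 20.4%. With the rank given as a percent of the list's length, which carries the list lengths, the count was 0, as it was for all but 0.664% of the 3614 genes.

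**Figure D5:**
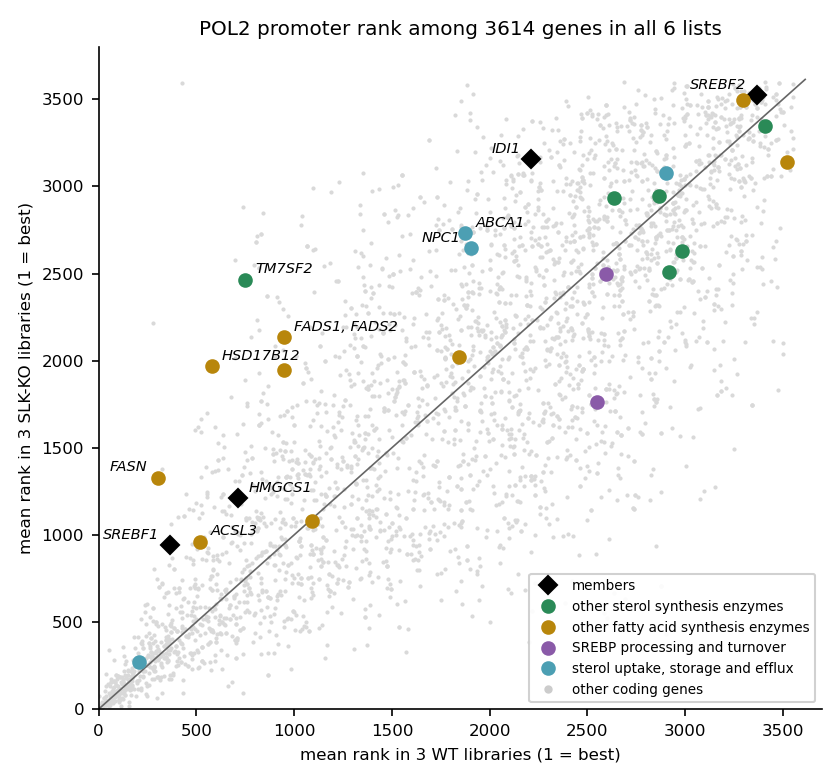
Mean rank in 3 WT libraries (horizontal axis) against mean rank in 3 SLK-KO libraries (vertical axis, 1 is best on both) for the 3614 protein-coding genes with a POL2 promoter summit in all 6 lists, with the line of equal rank, the 4 members as black diamonds and 21 other pathway genes as coloured circles. Points above the line rank worse in SLK-KO; SREBF1 lies at 365 against 940 and HMGCS1 at 713 against 1211, and labels on coloured circles mark genes better in every WT library.

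The rest of the pathway was described by 56 further genes in 4 lists. Of these, 21 were in all 6 POL2 lists, and among the 21 the rank was better in every WT library for 8 and in every SLK-KO library for 2, against the 15.0% and 14.8% of all shared genes. The 8 count the neighbouring genes FADS1 and FADS2 separately, though their ranks were equal in most libraries. The median difference in mean rank, SLK-KO minus WT, was 177 over the 21 genes. The names given for these counts were chosen after their values were seen. Of the epithelial markers, KRT18 and KRT19 were also better in every WT library and KRT8 was not, with a median difference of 266 over the 3, and the part of this shift in the values of the pathway genes was not tested.

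Among 16 other enzymes of sterol synthesis, 14 had a POL2 promoter summit in at least 1 list and 6 in all 6, against 53.8% and 18.1% of all genes. In the full lists 1 was in more WT and 6 in more SLK-KO lists, against 2.39% and 30.6%. In lists of equal length 4 were in more WT and 1 in more SLK-KO lists, against 7.45% and 10.7%. MSMO1, which removes sterol methyl groups, was in 3 SLK-KO and 0 WT lists, a pattern of 1.54% of all genes, at ranks 11168, 11174 and 9774. The WT lists of replicates 2 and 3, with 5047 and 9925 summits, do not reach the first of these ranks. The MSMO1 scores, 5.90, 4.53 and 6.56, were above the lowest score of every WT list, 1.30 to 1.32. A part of list length was not tested. By rank among the shared genes, TM7SF2, which reduces a sterol double bond, was better in every WT library, at 577, 315 and 1350 in WT against 2060, 2309 and 3025 in SLK-KO. The median difference over the 6 genes was 8.67.

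Among 18 other genes of fatty acid synthesis, 15 had a POL2 promoter summit in at least 1 list and 9 in all 6, against 53.8% and 18.1% of all genes. In the full lists 0 were in more WT and 6 in more SLK-KO lists, against 2.39% and 30.6%. In lists of equal length these counts were 2 and 0, against 7.45% and 10.7%. Of the 9, 5 ranked better in every WT library: FASN, the acyl-CoA synthetase ACSL3, the elongation enzyme HSD17B12 and the neighbouring desaturase genes FADS1 and FADS2, which had equal ranks in 5 of 6 libraries. ACACB, an acetyl-CoA carboxylase, ranked better in every SLK-KO library. FASN, the fatty acid synthase, ranked 244, 343 and 320 in WT and 1740, 1183 and 1063 in SLK-KO among the shared genes. The median difference over the 9 genes was 443.

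Among 11 genes of SREBP processing and turnover, 9 had a POL2 promoter summit in at least 1 list and 2 in all 6. The shares over all genes were 53.8% and 18.1%. In the full lists 0 were in more WT and 6 in more SLK-KO lists, against 2.39% and 30.6%. ERLIN1, which takes part in the degradation of sterol-regulated proteins, was in 3 SLK-KO and 0 WT lists, a pattern of 1.54% of all genes, at ranks 6457, 9353 and 9996. All 3 ranks lie beyond the 5047 summits of WT replicate 2, and the last lies beyond the 9925 of WT replicate 3. The ERLIN1 scores, 13.6, 6.17 and 6.20, were above the lowest score of every WT list, 1.30 to 1.32. A part of list length was not tested. Neither shared gene ranked better in every WT library and FAF2, which takes part in protein degradation at the endoplasmic reticulum, ranked better in every SLK-KO library, with a median difference of -442. In lists of equal length 1 gene of the 11 was in more WT and 3 in more SLK-KO lists, against 7.45% and 10.7%.

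Among 11 genes of sterol uptake, storage and efflux, 10 had a POL2 promoter summit in at least 1 list and 4 in all 6. The shares over all genes were 53.8% and 18.1%. In the full lists 0 were in more WT and 6 in more SLK-KO lists, against 2.39% and 30.6%. In lists of equal length these counts were 3 and 3, against 7.45% and 10.7%. The sterol exporter gene ABCG1 was in 3 SLK-KO and 0 WT lists of equal length, the reverse of INSIG1 and a pattern of 1.00% of all genes. Of the 4, the cholesterol exporter ABCA1 and the lysosomal cholesterol transporter NPC1 ranked better in every WT library and none in every SLK-KO library, with a median difference of 455. ABCA1 ranked 2158, 1519 and 1944 in WT and 3030, 2810 and 2355 in SLK-KO among the shared genes. NPC1L1, which takes up cholesterol in the intestine, had no POL2 promoter summit in any list.

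MYC promoter summits were found at 8 of the 56 pathway genes in at least 1 list, against the 9.67% of all protein-coding genes. FASN had one in 1 WT and 3 SLK-KO lists. SCAP, the SREBP escort protein, was in 2 WT and 2 SLK-KO lists. RNF145, a ubiquitin ligase of the sterol response, was in 3 SLK-KO and 0 WT lists, a pattern of 0.875% of all genes. Its ranks were 619, 602 and 405, beyond the 365 summits of the longest WT list. Its scores were 5.80, 6.47 and 6.64, above the lowest score of every WT MYC list, 1.39 to 1.43. Whether list length bears on its absence from WT was not tested. LSS, which closes the sterol rings, and ELOVL1, a fatty acid elongase, were in 2 SLK-KO lists each. The sterol reductase genes LBR and DHCR7 and the SREBP protease gene MBTPS2 were in 1 SLK-KO list each, and none of these 5 was in a WT list.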

How the data were processed

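Each of the 12 MYC and POL2 libraries in PC-3 cells had 1 summit list. Per the submitters' processing notes, 50 bp paired-end reads were processed with nf-core/chipseq 2.1.0 (Trim Galore 0.6.7, BWA 0.7.18-r1243, Picard 3.2.0, MACS3 3.0.1) against GRCh38.p14. The control library and caller options are not given in the sources used here. The deposited score of each summit is taken to be the -log10 q-value, because the lowest score of every list was just above 1.30103, and it served to order and select summits inside their own list. Depth is unknown.

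Summits within 1 kb of any GENCODE release 44 start of a gene were its promoter summits, those in the gene span but over 1 kb from every start its gene body summits. Summits 250 bp or less apart were chained into sites. Of 82 sequence names in the lists, 24 were in the reference, and no summit on these lay past the sequence end. Ranks among genes in all 6 lists were added after the data were seen. The 8 members and all gene lists were chosen with earlier results of these data known, and some pathway genes are not reported here and stand in none of the lists' counts. Named were the members, SLK, pathway genes found in 3 libraries of a genotype and 0 of the other, in full lists or lists of equal length, or with a MYC summit, examples of each list, neighbours of the members and the genes most like them. Alternatives covered the window, list length, score, chaining and leaving out each library. The tools were samtools 1.23.1 and Python 3.11.15 with matplotlib 3.10.9, numpy 2.4.6, pysam 0.24.0 and scipy 1.17.1.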

Additional observations from a re-analysis of the deposited data

How the results depend on the processing

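Of 138 recomputed values, 124 kept within the spread or within 1.5 times of the value reported, 14 moved and 0 reversed. Only the differences between genotypes could reverse, and counts of 0 that stayed 0 are among the 124. The genes with a POL2 promoter summit in all 6 lists numbered 4, and 2 with a window of 250 bp (HMGCS1 and IDI1), with lists of equal length, and with a score of at least 5 or at least 10 (HMGCS1 and SREBF1). The genes in 3 WT and 0 SLK-KO lists numbered 0, and 1 with lists of equal length (INSIG1). The genes with a MYC summit numbered 1, and 0 with a window of 250 bp, lists of equal length or a score of at least 5 or 10; leaving out each library gave 0 to 1, with 0 without SLK-KO replicate 1. The INSIG1 difference within 100 kb was 0 with a window of 50 kb, and -1.83 to -0.833 when each library was left out. The members with a better shared rank in every WT library numbered 2, and 0 with the rank as a percent of the list and 1 with a window of 250 bp (HMGCS1). The other pathway genes so ranked numbered 8, and 1 with the rank as a percent of the list (HSD17B12), where 24.2% of all 3614 genes ranked better in every SLK-KO library. No paired analysis was possible because no result comes from a test. Without depth or read counts, a summit missing from a list cannot be told from one below the caller's threshold.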
